A study of Mus musculus with 4 samples.

Results

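T cells and natural killer (NK) cells made up 1181 of the 41076 barcodes kept from 4 libraries of dissociated mouse kidney. A barcode was kept at 300 or more genes and at most 50% mitochondrial UMIs, a UMI being 1 counted RNA molecule. It was taken as a T or NK cell when it held a UMI of 2 or more of the genes Cd3d, Cd3e, Cd3g, Nkg7, Ncr1, Klrb1c and Trbc2, no UMI of the B cell gene Cd79a or the macrophage gene C1qa, and at most 10 UMIs of the proximal tubule gene Slc34a1. The 1013 barcodes with a Cd3d, Cd3e or Cd3g UMI are called T cells, and the other 168 NK-like cells. The cells were thus chosen by the UMI counts of these genes and split by them. The levels of these genes are a description and no evidence for the split. Gene lists followed over time keep those of these genes that belong to them.

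The kidneys came from male and female C57BL/6J mice aged 10 weeks, and each library pooled kidneys of a male and a female. Mice of 3 groups had received recombinant human FGF23, a phosphate-regulating hormone, as 1 intraperitoneal injection of 10 µg per mouse, and kidneys were taken after 1, 4 or 12 h. The control group is labelled 0 h and 0 µg. Its matrix, however, carries a name that reads as saline for 1 h, and it is called the 0 h library here. Tissue was digested with enzymes and by mechanical means, red cells were lysed, and Annexin V was used to remove dying cells before droplet capture. With 1 library per group no difference between times has a replicate check, and none was tested. Intervals given below are exact 95% intervals that cover counting error only, and the comparisons at 1, 4 and 12 h all share the 0 h library. Where 4 values follow each other with no time named, they are those of the 0, 1, 4 and 12 h libraries in that order.

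T cells recognise antigen through a receptor made of alpha and beta or gamma and delta chains, and the receptor signals through the CD3 chains. NK cells lack that receptor and are steered by activating and inhibitory receptors of the NCR, NKG2 and Ly49 families. In the kidney, as in other tissues, lymphocytes that recirculate through blood and lymph nodes carry the receptors Ccr7 and S1pr1, while lymphocytes that stay in tissue tend to carry Cxcr6 and granule or cytokine genes.

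The 3 CD3 genes of the rule lie side by side. In GENCODE vM21, annotated on GRCm38, Cd3g spans chr9:44969572-44980431 on the minus strand and Cd3d spans chr9:44981786-44987339 on the plus strand. Their starts lie 1355 bases apart and point away from each other. Cd3e lies in the same cluster at chr9:44998740-45009627 on the minus strand. The 250 bases before the start are shown for this divergent pair, for the NK gene Klrb1c and for Cxcr6, which later divides the T cells (RefSeq, GRCm38.p6, each 5′ to 3′ on the gene's strand). Capitals mark TGTGGT, a core motif of RUNX factors, and GGAAGT, a core motif of ETS factors, on either strand.
Cd3g, chr9:44980432-44980681, minus: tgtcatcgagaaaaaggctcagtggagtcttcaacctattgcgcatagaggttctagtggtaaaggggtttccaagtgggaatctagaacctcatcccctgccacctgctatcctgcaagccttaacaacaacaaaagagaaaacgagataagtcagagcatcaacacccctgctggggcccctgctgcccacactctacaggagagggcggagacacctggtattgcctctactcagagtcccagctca
Cd3d, chr9:44981536-44981785, plus: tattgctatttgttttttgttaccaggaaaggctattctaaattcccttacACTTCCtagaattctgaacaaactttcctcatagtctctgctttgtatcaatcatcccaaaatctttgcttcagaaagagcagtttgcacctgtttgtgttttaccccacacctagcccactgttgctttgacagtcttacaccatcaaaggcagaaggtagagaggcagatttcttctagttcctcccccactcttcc
Klrb1c, chr6:128788642-128788891, minus: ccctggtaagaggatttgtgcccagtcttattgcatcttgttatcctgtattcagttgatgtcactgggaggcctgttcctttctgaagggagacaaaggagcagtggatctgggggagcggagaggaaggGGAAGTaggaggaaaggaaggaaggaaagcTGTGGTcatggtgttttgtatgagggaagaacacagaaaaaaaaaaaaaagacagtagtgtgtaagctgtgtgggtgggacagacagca
Cxcr6, chr9:123806227-123806476, plus: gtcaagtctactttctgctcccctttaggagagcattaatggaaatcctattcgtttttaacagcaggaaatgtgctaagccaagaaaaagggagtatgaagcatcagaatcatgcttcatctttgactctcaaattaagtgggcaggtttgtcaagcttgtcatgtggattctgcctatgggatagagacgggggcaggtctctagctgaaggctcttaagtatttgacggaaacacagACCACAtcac
The Cd3d window holds 1 ETS match, on the reverse strand, and the Cd3g window holds neither motif. The Klrb1c window holds 1 match of each motif, and the Cxcr6 window holds 1 RUNX match on the reverse strand. Among the 32851 promoter windows of this length, 14.0% hold the RUNX letters and 19.7% the ETS letters. A match describes the letters and does not show a bound site.

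The libraries held 12245 to 13813 barcodes and 139675666 to 158838728 UMIs each, and 9477 to 11120 barcodes per library were kept. Among T and NK cells, the median was 2804 UMIs per cell, 3036, 3201 and 3243, against 12950.5 to 14675 in proximal tubule barcodes (over 10 Slc34a1 UMIs). The median mitochondrial share of T and NK cells was 7.69%, 6.60%, 4.49% and 6.46%, lowest at 4 h. Of 52198 distinct barcode sequences, 278 occurred in 2 libraries and 1 in 3 or more, and none was a T or NK cell in 2 libraries. At the edge of the rule, 162 barcodes had a UMI of exactly 1 of the 7 marker genes and were left out, and 59 of the cells had exactly 2, 212 had 3 and 910 had 4 or more. Slc34a1 left out 106 barcodes, Cd79a 40 and C1qa 5, and 881 of the cells had no Slc34a1 UMI.

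At 12 h T and NK cells took the largest share of kept barcodes and at 4 h the smallest. T cells numbered 246, 203, 204 and 360. Their share was 2.43% (2.14 to 2.75), 2.14% (1.86 to 2.45), 1.83% (1.59 to 2.10) and 3.48% (3.13 to 3.85). The 12 h interval lay above the other 3, and the 4 h interval lay below that of 0 h and overlapped that of 1 h. NK-like cells numbered 42, 36, 39 and 51 in the same order, which is 0.415%, 0.380%, 0.351% and 0.492% of barcodes, with overlapping intervals.

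The shares of other cells differed between the libraries as well. B barcodes, with a Cd79a and a Cd79b UMI, were 1.81%, 1.91%, 0.863% and 2.66%. Macrophage barcodes, with a C1qa and a C1qb UMI, were 0.859%, 0.327%, 0.0719% and 0.473%. Proximal tubule barcodes were 63.7%, 66.3%, 66.1% and 56.4%, lowest in the library with the most T cells. The shares depend on each other, and the part of the other cells in the T cell share was not tested.

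**Figure D1:**
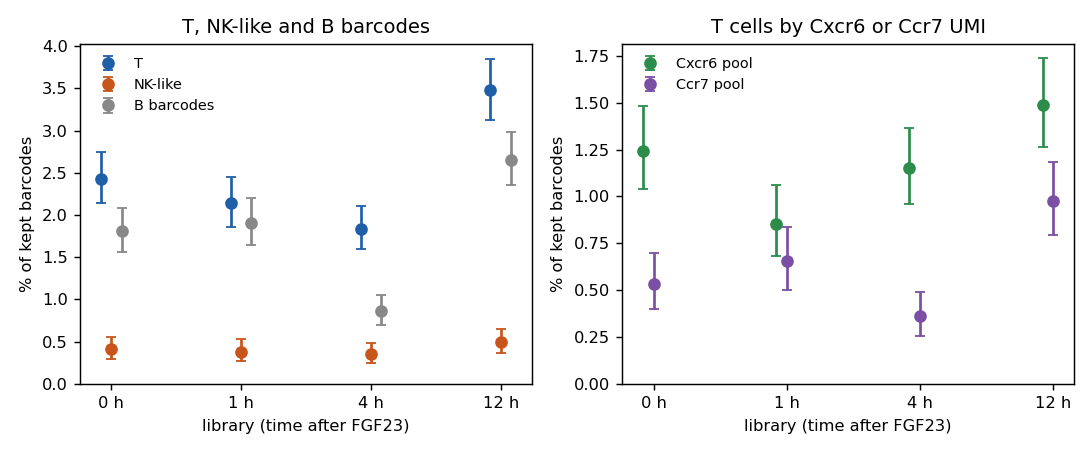
Share of kept barcodes in each library (y axis, percent) for T cells, NK-like cells and B barcodes (left) and for T cells with Cxcr6 or with Ccr7 UMIs (right). Points are single libraries at 0, 1, 4 and 12 h and bars are exact 95% intervals. T cells ran from 1.83% at 4 h to 3.48% at 12 h, and B barcodes were also lowest at 4 h and highest at 12 h.

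The T cell label held against genes that the rule did not use. Trac, the constant part of the T cell receptor alpha chain, had a UMI in 820 of 1013 T cells and in 5 of 168 NK-like cells. Fcer1g, the signalling adaptor of NK and Fc receptors, had a UMI in 166 NK-like cells, or 98.8%, and in 6.86% to 7.39% of T cells per library. Tyrobp, the partner adaptor of several NK receptors, had a UMI in 81.0%, 100%, 92.3% and 100% of NK-like cells at 0, 1, 4 and 12 h and in 3.43% to 5.56% of T cells. By the rule an NK-like cell holds an Ncr1 or Klrb1c UMI unless it entered on Trbc2 and Nkg7 alone, as 4 did. That count follows from the rule and is no support for the label. In proximal tubule barcodes, a Trac UMI occurred in 0.327% to 0.890%, a Fcer1g UMI in 0.762% to 1.88% and a Tyrobp UMI in 0.735% to 2.34%, although their median depth was 13627.5 UMIs against 3212 in T cells and 2491.5 in NK-like cells.

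T cells were 85.4% of the chosen cells, 84.9%, 84.0% and 87.6%. After each cell was thinned to 1000 UMIs, which left out 8 shallower cells, the shares were 78.2%, 80.2%, 77.0% and 80.0%. The share differed little between libraries on either count.

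Set against each other within a library, T and NK-like cells differed in whole families of genes. Among 3565 genes with 100 or more UMIs, 5.33% were at least 2-fold higher in T cells in all 4 libraries and 4.52% at least 2-fold higher in NK-like cells. These counts include genes of the rule. The minimum was set on both classes together, so a gene could enter through the larger T cell class alone. On the T side the 10 largest were Cd3g, Cd3d and Cd3e, the co-receptor genes Cd8b1 and Cd8a, Dapl1, the lymph node homing receptor Ccr7, the signal inhibitor Cd5 and the cell cycle genes Pclaf and Ube2c. None of the 10 had a UMI in an NK-like cell, against 5412 UMIs of Cd3g and 413 of Ube2c in T cells. For Cd3g, Cd3d and Cd3e that 0 was fixed by the split and is no result. Each ratio is a lower bound with the 0 set at 3 UMIs over the class. On that bound Cd8b1 was at least 5.95 higher on the log2 scale and Ube2c at least 4.14 higher.

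On the NK side the 10 largest were the Ly49 receptor genes Klra4 and Klra8, the protease gene Cma1, the lectin receptor genes Klrb1b, Klrb1c and Klri2, the activating receptor gene Ncr1, the granzyme gene Gzma, and the adaptors Tyrobp and Fcer1g. Of these, Ncr1 and Klrb1c are genes of the rule, so their levels depend on how the cells were chosen. The log2 ratio of T to NK-like cells ran from -7.90 for Klra4 to -4.64 for Fcer1g. Gzma stood at 6832 to 10902 CPM (counts scaled to the class's total UMIs in a library) in NK-like cells and at 47.4 to 361 in T cells. The Klra and Klrb1 genes have near-identical copies, so how their reads were shared out is uncertain.

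By list, genes are counted here as higher or lower when all 4 libraries gave that direction, at any size, and the 7 genes of the rule are left out. Over 9996 genes with 20 or more UMIs, 12.4% were higher in T cells and 12.8% lower on that count (median log2 ratio -0.11). Of the 18 other NK receptor and factor genes, all 18 were lower in T cells (median -3.30), and of 12 cytotoxic granule genes 7 were lower and 1 higher (median -1.37). Of 16 T cell receptor and signalling genes, 13 were higher in T cells (median 1.43). All 10 proliferation genes were higher in T cells (median 3.23), and the cells behind them were few: Mki67, a marker of cycling cells, had a UMI in 14 T cells, 12, 12 and 15. Interferon response genes were higher in T cells for 14 of 23 (median 0.87) and lower for none. Homing receptor genes were split, with 4 of 16 higher and 9 lower in T cells.

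By co-receptor, 307 T cells had a Cd8a or Cd8b1 UMI and no Cd4 UMI, 172 had Cd4 without Cd8, 3 had both and 531 had none of the 3 genes. Cells with CD8 alone were 22.1% to 36.0% of T cells per library and those with CD4 alone 15.2% to 17.8%. Cd8b1 totalled 1442 UMIs, Cd8a 812 and Cd4 220, so that at this depth a T cell without a co-receptor UMI cannot be told from one that lacks the co-receptor. After thinning, cells with none of the 3 were 64.2% to 75.5% per library. Tcrg-C1, Tcrg-C2 or Tcrg-C4, constant parts of the gamma chain, had a UMI in 171 T cells, and Trdc, the delta constant region, in 41. Tcrg-C4 and Trdc also had UMIs in NK-like cells, with T to NK-like log2 ratios of -0.97 (-1.49 to -0.42) and 0.27 (-0.30 to 0.90). Tcrg-C1 and Tcrg-C2 had none there. The counts are thus of cells with a UMI and not of gamma-delta T cells. Foxp3, the factor of regulatory T cells, had a UMI in 25 T cells, or 1.48% to 3.06% per library. The factor genes of other T cell programmes were sparse, with 339 UMIs of Rora and 338 of Gata3, both tied to type 2 cells, 9 of Il1rl1, 9 of Ccr6 and 5 of Il23r, the last 2 tied to type 17 cells.

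Cxcr6 and Ccr7 divided the T cells into pools that hardly overlapped. These 2 genes were picked after their values had been seen, so the division is a description. A Cxcr6 UMI alone was present in 489 T cells (called the Cxcr6 pool), a Ccr7 UMI alone in 257 (the Ccr7 pool), both in 35 and neither in 232. The product of the shares of each gene within the libraries gives 147 cells with both. Cells with both were deeper, with a median of 4570 UMIs against 3053 in the Cxcr6 pool and 3430 in the Ccr7 pool. Cxcr6 (chr9:123806475-123811760) encodes a chemokine receptor of tissue lymphocytes, and Ccr7 (chr11:99144196-99155077) the receptor that guides cells into lymph nodes.

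Cxcr6 was found in 62.7%, 54.3%, 71.4% and 51.4% of T cells without a co-receptor UMI, and Ccr7 in 19.4%, 24.5%, 13.5% and 26.6%. In cells with CD8 alone it was found in 49.3%, 39.7%, 57.8% and 39.8%, and Ccr7 in 39.4%, 39.7%, 33.3% and 44.1%. Both groups thus held cells with either gene in every library. Ccr7 had no UMI in the 168 NK-like cells, which allows a share of cells with a UMI of up to 1.79% and sets no limit on cells that express it, and Cxcr6 had a UMI in 39 of them. In proximal tubule barcodes, Cxcr6 had a UMI in 0.150% to 0.376% and Ccr7 in 0.231% to 0.511%.

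Genes of recirculating cells were high in the Ccr7 pool in every library. Klf2, a factor that keeps S1pr1 expressed, had a UMI in 98.1% of Ccr7 pool cells, 100%, 97.5% and 98.0%, against 11.1%, 17.3%, 14.8% and 17.5% of the Cxcr6 pool. Il7r, the receptor for the survival cytokine IL-7, had a UMI in 74.1%, 82.3%, 82.5% and 70.3% of the Ccr7 pool and in 21.4%, 27.2%, 22.7% and 18.2% of the Cxcr6 pool. The pools did not overlap between libraries for either gene. S1pr1, which lets lymphocytes leave tissue, was found in 51.9% to 62.9% of the Ccr7 pool and 7.41% to 12.5% of the Cxcr6 pool. Lef1, a factor of naive T cells, was found in 75.9% to 88.7% and 18.8% to 32.1%. After thinning, Klf2 stood in 75.2% to 83.3% of the Ccr7 pool and 4.80% to 12.3% of the Cxcr6 pool, so the gap held at equal depth. In proximal tubule barcodes, Klf2 had a UMI in 4.01% to 6.56% and the other 3 genes in at most 0.924%.

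Effector genes ran the other way. Ccl5, a chemokine of memory T and NK cells, had a UMI in 53.2% of Cxcr6 pool cells, 71.6%, 60.2% and 68.2%, against 3.70%, 8.06%, 0 and 7.92% of the Ccr7 pool, where 0 of 40 cells allows up to 7.50% of cells with a UMI. Cxcr3, a receptor for interferon-induced chemokines, was found in 72.7% to 79.0% of the Cxcr6 pool and in at most 9.68% of the Ccr7 pool. Ccr2, the receptor for the monocyte chemokine Ccl2, was found in 36.4% to 50.6% and in at most 2.50%. Klrk1, the activating receptor NKG2D, was found in 32.0% to 39.5% and in at most 3.23%. Zbtb16, a factor of innate-like T cells, had 40 UMIs in the Cxcr6 pool and none in the Ccr7 pool. Cd69, a marker of recent activation and of tissue residence, did not separate the pools in this way, at 191, 109, 187 and 118 CPM in the Cxcr6 pool and 280, 203, 170 and 169 in the Ccr7 pool. Itgae, another residence marker, was found in only 1.63% to 3.43% of T cells. Cxcr3, Ccr2, Klrk1, Zbtb16 and Itgae were named here after their values were seen.

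**Figure D2:**
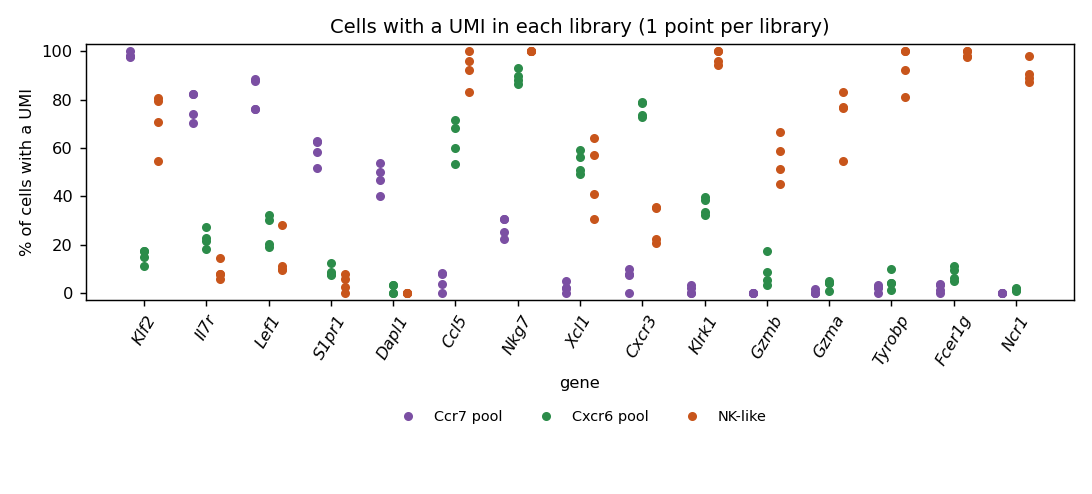
Share of cells with a UMI (y axis, percent) for 15 genes in the Ccr7 pool, the Cxcr6 pool and NK-like cells, with 1 point per library. Klf2, Il7r, Lef1, S1pr1 and Dapl1 sit high in the Ccr7 pool, Ccl5, Nkg7, Xcl1, Cxcr3 and Klrk1 sit higher in the Cxcr6 pool than in the Ccr7 pool, and Gzmb, Gzma, Tyrobp, Fcer1g and Ncr1 are highest in NK-like cells.

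Over 2697 genes with 100 or more UMIs, 15.9% were at least 2-fold higher in the Cxcr6 pool in all 4 libraries and 1.97% in the Ccr7 pool. The minimum was set on the UMIs of both pools together, and the Cxcr6 pool held 489 cells against 257. Genes such as Gzmb (102 and 0 UMIs) thus entered through the Cxcr6 pool alone, and the 2 shares depend on that minimum. After Cxcr6 itself, the largest on the Cxcr6 side were Gzma (240 UMIs in the Cxcr6 pool and 1 in the Ccr7 pool), P2rx7 (209 and 1), Chst2 (165 and 1) and the chemokine gene Xcl1 (940 and 7). Gzma in all T cells came from only 3, 16, 6 and 11 cells. Of these, 2, 5, 2 and 2 also had an Ncr1 or Fcer1g UMI. Serpina3g, Krt83, the NKG2A gene Klrc1, Klre1 and the granzyme gene Gzmb had no UMI in the Ccr7 pool. In the Cxcr6 pool they had 176, 153, 134, 118 and 102 UMIs. On the Ccr7 side, after Ccr7 itself, the log2 ratio of the Cxcr6 to the Ccr7 pool was -4.47 for Dapl1, -3.88 for Il6ra, -3.35 for Nsg2, -3.32 for Klf2, -3.15 for Actn1, -3.02 for Cmah, -2.79 for S1pr1 and -2.70 for Fam169b. S1pr1 is the gene of this side that lets lymphocytes leave tissue.

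By list, with Cxcr6 and Ccr7 left out, all 11 naive and recirculating genes were lower in the Cxcr6 pool in all 4 libraries (median log2 ratio -2.55). Over 9015 genes with 20 or more UMIs, 34.6% were higher in the Cxcr6 pool in all 4 libraries and 5.47% lower, with a median of 0.43, so the lists are to be read against a lean to that pool. Higher in all 4 were 12 of 13 cytotoxic granule genes (median 2.51), 9 of 10 cytokine and chemokine genes (2.93), 13 of 17 NK receptor genes (3.07) and 7 of 11 tissue-residence and activation genes (2.38). Interferon response genes were higher for 16 of 22 (1.11), and the 6 measured genes of ERK feedback, which the growth factor pathway switches on, were all higher (2.14). The T cell receptor genes themselves differed less, with 13 of 20 higher, 2 lower and a median of 0.30. The lists of cytokine receptors (9 higher and 3 lower of 15) and homing receptors (7 and 3 of 12) were mixed. Kl, the Klotho co-receptor gene of the tubule, was also higher in the Cxcr6 pool in all 4 libraries (3.13, 1.95 to 4.61). The vitamin D genes Vdr (0.08, -0.70 to 0.89) and Cyp24a1 (0.20, -1.09 to 1.62) had intervals that included 0. Cells with UMIs of other cell types were kept in both pools, and the part of tubule RNA in the lean was not tested.

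The pools did not keep the same proportion over the libraries. A Cxcr6 UMI was found in 55.3% of T cells, 43.8%, 64.2% and 46.7%, and in 37.9%, 27.9%, 49.0% and 27.4% after thinning. A Ccr7 UMI was found in 26.0%, 34.5%, 21.1% and 31.9%, and in 12.8%, 14.4%, 8.82% and 15.4% after thinning. Cxcr6 was thus most common at 4 h, where Ccr7 was least common, on both counts. As a share of kept barcodes, the Cxcr6 pool was 1.24% (1.04 to 1.48), 0.855% (0.679 to 1.06), 1.15% (0.961 to 1.37) and 1.49% (1.26 to 1.74). The Ccr7 pool was 0.533% (0.401 to 0.695), 0.654% (0.502 to 0.838), 0.360% (0.257 to 0.490) and 0.975% (0.795 to 1.18). Only at 12 h did the Ccr7 pool lie above its 0 h interval, and the intervals of the Cxcr6 pool at 1, 4 and 12 h each overlapped that of 0 h. Since the proportion of the pools differed between libraries, values within the pools are given for some of the genes and lists below.

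Between times, T cells differed from 0 h by 2-fold or more for 7.04% of 7302 measured genes at 1 h (2.27% higher and 4.77% lower). At 4 h it was 5.4% of 7576 genes (3% higher and 2.4% lower), and at 12 h 5.22% of 8413 (2.5% and 2.72%). A gene was measured at 20 or more UMIs over the 2 libraries compared, and 0.5 was added to each count. In NK-like cells it was 8.17% of 1579 genes at 1 h (5.38% higher and 2.79% lower), 16.5% of 2052 at 4 h (9.84% and 6.68%) and 8.42% of 1995 at 12 h (4.56% and 3.86%). With totals that left out mitochondrial, ribosomal and other-cell genes, the share of the NK-like genes past 2-fold at 1 h that was higher went from 65.9% to 50.8%, and the median of all genes from 0.04 to -0.07. Of the T cell genes past 2-fold, 280, 168 and 182 at 1, 4 and 12 h had higher CPM in proximal tubule barcodes than in these cells. With Kap, Gpx3, Cst3, Pecam1 and Mmp9 not counted, 82 cells (6.94%) held 5 or more UMIs of another cell type's list, or 20 of the proximal tubule list. The tubule genes Kap and Gpx3 had 9846 and 2099 UMIs in all T and NK cells. Leaving out the 82 cells therefore need not remove the RNA of these 2 genes. Without those 82 cells the T cell genes past 2-fold numbered 121 higher and 143 lower at 1 h, 139 and 161 at 4 h, and 101 and 215 at 12 h, against 166 and 348, 227 and 182, and 210 and 229 with them. In NK-like cells at 4 h they numbered 58 each way, against 202 higher and 137 lower.

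**Figure D3:**
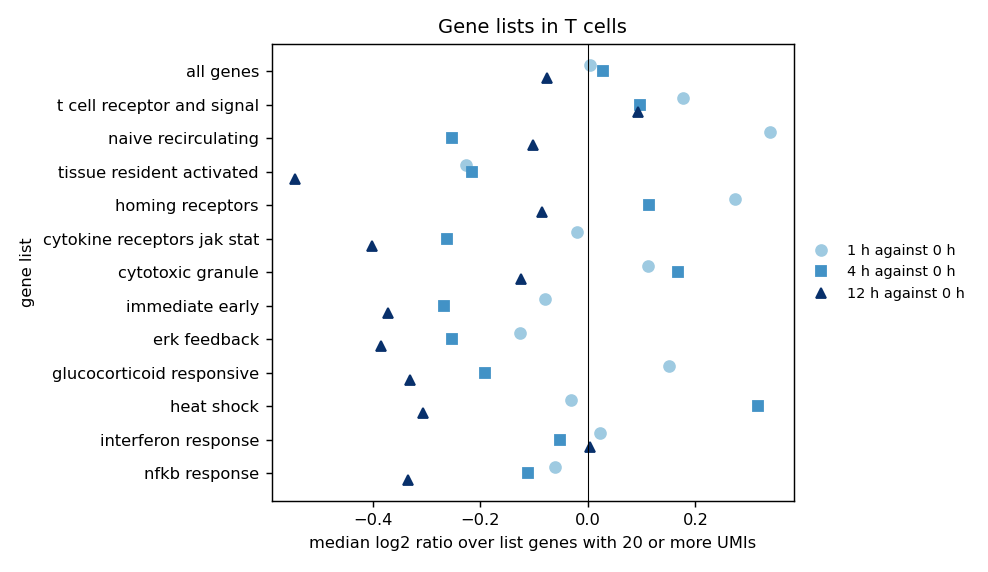
Median log2 ratio to 0 h in T cells (x axis) for 12 gene lists and all measured genes (y axis), with 1 marker for each of 1, 4 and 12 h. The lists of immediate-early, tissue-residence, cytokine receptor and glucocorticoid-responsive genes lie left of 0 at 12 h. So do those of heat shock, NFkB response, cytotoxic granule and homing receptor genes. All genes lie at 0.00, 0.03 and -0.08.

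Immediate-early genes, the rapid targets of MAP kinase and stress signalling, were lower at 12 h in T cells, in both pools, and at 4 h in all T cells and the Ccr7 pool but not in the Cxcr6 pool. Of their measured members, 6 of 14 were higher than at 0 h at 1 h (median log2 ratio -0.08), 2 of 14 at 4 h (-0.27) and 0 of 15 at 12 h (-0.37). Over all genes measured in T cells, 50.3%, 53.4% and 42.8% were higher. No such share is given within the pools, so the pool counts over time, here and below, stand without it. In the Cxcr6 pool 7 of 13 were higher at 4 h (median 0.06) and 2 of 13 at 12 h (-0.51), and in the Ccr7 pool 1 of 9 (-0.72) and 0 of 10 (-0.92). Past 2-fold lower were 2, 1 and 4 members, where 4.77%, 2.4% and 2.72% of all genes were past it. Junb, an AP-1 subunit, stood at 727, 687, 561 and 331 CPM. The 12 h library was lowest, with a log2 ratio of -1.14 (-1.30 to -0.97). Fos, its AP-1 partner, stood at 124, 91.6, 52.7 and 36.1 CPM (-1.78 at 12 h, -2.26 to -1.31) and was found in 39, 31, 21 and 27 cells. Dusp1, a MAP kinase phosphatase, stood at 175, 104, 98.6 and 62.5 CPM (-1.49 at 12 h, -1.86 to -1.12). Jund and Btg2, the other most counted members, had 3364 and 1327 UMIs. For Junb, Fos and Dusp1 each later library was lower than the one before. Junb had a log2 ratio of -1.20 at 12 h in the Cxcr6 pool and -1.62 in the Ccr7 pool.

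Proximal tubule barcodes did not share that course. Junb there was 38.2, 67.1, 27.1 and 20.4 CPM, while in B barcodes it was 1101, 965, 726 and 464, in the same order as in T cells. Egr1, an ERK target, stood at 26.5, 210, 22.4 and 7.07 CPM in proximal tubule barcodes and at 32, 12, 23 and 27 UMIs in T cells, where its direction at 12 h turned when cells were weighted equally (0.34 on the log2 scale). Dusp6, the ERK phosphatase induced by growth factors, stood at 22.9, 82.7, 64.9 and 34.0 CPM in proximal tubule barcodes and at 50.5, 47.1, 48.2 and 38.7 in T cells. The T cell log2 ratios of Dusp6 were -0.10 (-0.76 to 0.54) at 1 h and -0.07 (-0.70 to 0.55) at 4 h, so a change of the tubule's size at 1 h lay outside the counting interval. Of the other ERK feedback genes, Dusp5 had a log2 ratio of -1.03 (-1.78 to -0.29) and Dusp2 of -0.89 (-1.15 to -0.63) in T cells at 12 h. Genes of FGF23 and vitamin D action were sparse in T cells. Kl, the Klotho co-receptor, had a UMI in 2.96% to 4.47% of T cells against 73.0% to 85.4% of proximal tubule barcodes, Vdr, the vitamin D receptor, had 115 UMIs in all T and NK cells, and Cyp24a1, the vitamin D catabolic enzyme, had 58. Cyp24a1 UMIs in T cells numbered 4, 3, 17 and 26 at 0, 1, 4 and 12 h, while proximal tubule barcodes stood at 53.3, 237, 437 and 342 CPM. The part of tubule RNA in these counts was not tested.

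**Figure D4:**
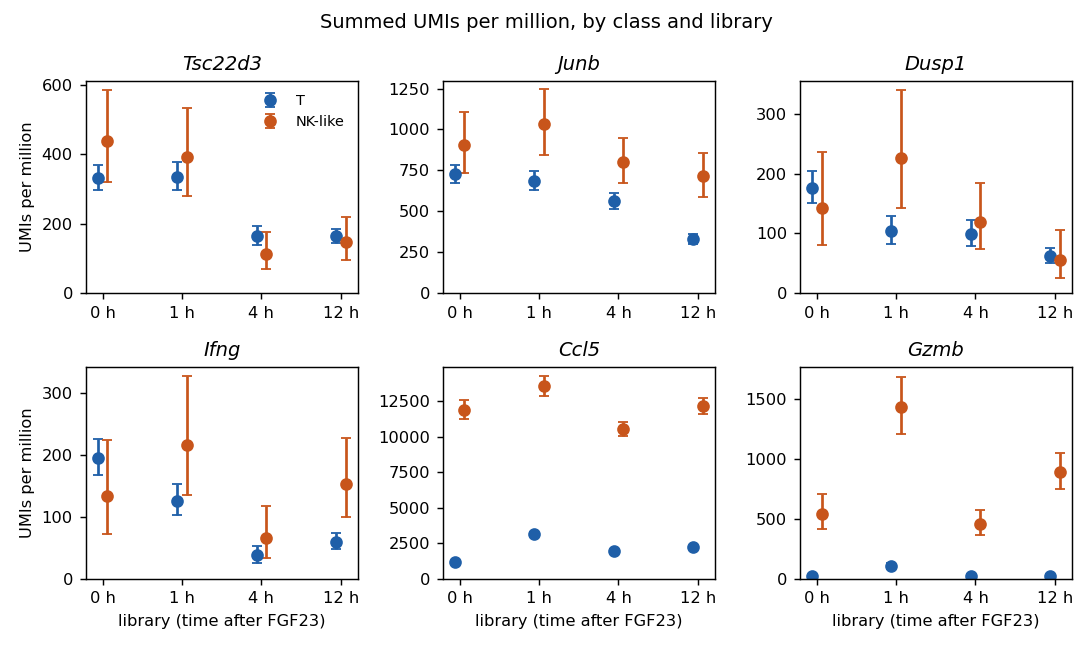
CPM (y axis, linear from 0) by library at 0, 1, 4 and 12 h (x axis) for Tsc22d3, Junb, Dusp1, Ifng, Ccl5 and Gzmb in T cells and NK-like cells. Bars are exact Poisson 95% intervals of the summed UMIs. In T cells Tsc22d3 is 332, 336, 165 and 164, and Gzmb is highest at 1 h in both classes.

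Tsc22d3, which encodes the glucocorticoid-induced leucine zipper GILZ and lies at chrX:140539528-140600659, separated the 0 and 1 h libraries from the 4 and 12 h libraries. T cells held 332 (297 to 370), 336 (296 to 379), 165 (139 to 194) and 164 (144 to 185) CPM. A UMI was found in 58.1%, 60.1%, 37.3% and 37.8% of T cells, and in 34.6%, 27.9%, 14.2% and 15.1% after thinning. The log2 ratio was 0.02 (-0.22 to 0.26), -1.01 (-1.30 to -0.72) and -1.02 (-1.26 to -0.78) at 1, 4 and 12 h. NK-like cells held 439, 393, 114 and 147 CPM, with a log2 ratio of -1.95 (-2.80 to -1.15) and -1.57 (-2.35 to -0.83) at the 2 later times. The 4 and 12 h levels lay below both earlier ones in each class.

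The same difference was present within each pool. In the Cxcr6 pool Tsc22d3 was 183, 188, 112 and 52.5 CPM at 0, 1, 4 and 12 h, and in the Ccr7 pool 660, 547, 324 and 316. In B barcodes it was 1198, 1169, 535 and 633. In each of these 3 populations the lower levels were those of 4 and 12 h. Proximal tubule barcodes stood at 32.0, 22.9, 26.4 and 17.2 CPM, with log2 ratios of -0.48, -0.28 and -0.89, lowest at 12 h, with the 1 h level below that of 4 h.

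**Figure D5:**
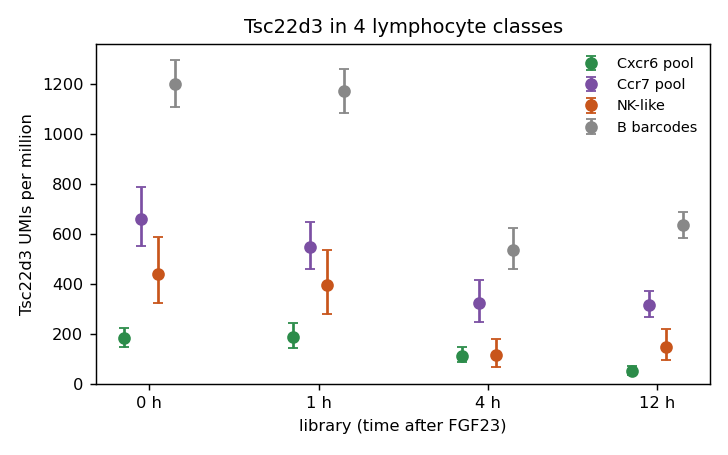
Tsc22d3 level (y axis, CPM) by library at 0, 1, 4 and 12 h (x axis) in the Cxcr6 pool, the Ccr7 pool, NK-like cells and B barcodes, with exact Poisson 95% intervals. In each population the 4 and 12 h points lie below the 0 h point.

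Of the glucocorticoid-responsive list, 11 of 14 genes were higher at 1 h (median log2 ratio 0.15), 4 of 13 at 4 h (-0.19) and 4 of 14 at 12 h (-0.33). Btg1, Txnip and Il7r were its most counted members, with 4327, 1603 and 1500 UMIs. Errfi1, a feedback inhibitor of the EGF receptor, had a log2 ratio of -0.96 (-1.67 to -0.25) in T cells at 12 h. Zfp36l2, an RNA-binding factor that destabilises messages, followed Tsc22d3 without being on that list. It stood at 612, 571, 308 and 332 CPM in T cells and at 926, 688, 245 and 356 in NK-like cells, lower at 4 and 12 h in both.

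The cytokine and chemokine genes did not move as a group. Of 10 measured in T cells, 4 were higher at 1 h, then 3 of 9 at 4 h and 6 of 10 at 12 h. Ifng, the interferon-gamma gene (chr10:118441046-118445892), numbered 189, 99, 33 and 93 UMIs in T cells, of which the first 3 are 195, 126 and 37.8 CPM. It was found in 55, 29, 21 and 41 T cells, and 1 cell held 50 of the 0 h UMIs. The log2 ratio was -0.63 at 1 h, with an interval below 0, then -2.36 (-2.95 to -1.83) and -1.70 (-2.07 to -1.34) at 4 and 12 h. In the Cxcr6 pool, where it was found in 14.8% to 36.5% of cells, it stood at 199, 274, 61.1 and 76.7 CPM, so the level at 1 h was above that of 0 h there and the levels at 4 and 12 h were below. Of the 83 UMIs of that pool at 1 h, 45 were in 1 cell. In NK-like cells Ifng rested on 14, 22, 11 and 25 UMIs, and the intervals of all 3 ratios included 0.

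Ccl5 was higher than at 0 h at every later time in T cells. It stood at 1201, 3182, 1982 and 2254 CPM, with log2 ratios of 1.41 (1.30 to 1.51), 0.72 (0.61 to 0.83) and 0.91 (0.81 to 1.00). The share of T cells with a Ccl5 UMI moved less, at 35.4%, 44.8%, 43.1% and 41.1% (26.7%, 36.8%, 36.8% and 31.6% after thinning), against 0.395% to 1.16% of proximal tubule barcodes. Within the Cxcr6 pool the ratios were 1.33, 0.74 and 0.94. NK-like cells held 11908, 13534, 10539 and 12158 CPM, and the direction at 4 h (-0.18) turned under 3 alternatives. Ltb, a lymphotoxin subunit, was the next most counted of the list with 3968 UMIs in all T and NK cells.

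Gzmb was found in 5 T cells, 23, 10 and 18, with 20.6, 104, 25.2 and 26.4 CPM. Its log2 ratio at 1 h was 2.34 (1.62 to 3.12), and at 1 h it was also highest in NK-like cells, which held 544, 1434, 461 and 891 CPM. Of the 146 Gzmb UMIs of NK-like cells at 1 h, 57 were in 1 cell, and the log2 ratio of 1.40 was 0.53 in cells with 3 or more of the marker genes. Gzma in T cells came from 3, 16, 6 and 11 cells, with 46, 265, 315 and 92 UMIs, of which 1 cell at 4 h held 205. Nkg7 and Srgn, a granule membrane protein and the granule proteoglycan, were the other most counted granule genes, and Serpinb9, the granzyme B inhibitor, had a log2 ratio of -0.86 (-1.52 to -0.19) at 12 h. Cytotoxic granule genes as a list were higher for 7 of 12 at 1 h (median 0.11), 8 of 12 at 4 h (0.17) and 4 of 13 at 12 h (-0.13).

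Some chemokine values were those of single cells. Xcl1 in T cells numbered 454, 153, 312 and 404 UMIs, of which 223 at 0 h lay in 1 cell, and its direction at 4 h (-0.39) turned when cells were weighted equally (0.47). Ccl1, a T cell chemokine, went from 146 UMIs at 0 h, 140 of them in 1 cell, to 1 at 1 h, 180 at 4 h (134 in 1 cell) and 24 at 12 h. Ccl3, a macrophage inflammatory protein gene, went from 70 UMIs, 58 in 1 cell, to 1, 1 and 14 at 1, 4 and 12 h. Tnfsf11, the RANK ligand gene, went from 42 UMIs, 30 in 1 cell, to 8, 13 and 14. Ccl4 stood at 49 UMIs at 0 h and 15 at 4 h, in 9 and 10 cells. These ratios compare a few cells and not the class.

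Naive and recirculating genes were higher at 1 h in T cells, for 11 of 12 (median log2 ratio 0.34), and lower at 4 h, where 3 of 12 were higher (-0.25). The share of Ccr7 pool cells among T cells was likewise highest at 1 h and lowest at 4 h. In the Ccr7 pool 6 of 12 were higher at 1 h and 2 of 11 at 4 h (medians -0.01 and -0.29), and in the Cxcr6 pool 6 of 7 and 6 of 8 (0.18 and 0.38), so that the direction at 4 h differed between the pools. The Ccr7 pool counts of the list include Ccr7, the gene that defines that pool. Klf2 in the Ccr7 pool was 2127, 1626, 1430 and 1475 CPM, highest at 0 h. In all T cells Klf2 (chr8:72319033-72321656) was 735, 966, 619 and 759 CPM, highest at 1 h. Igfbp4 had a log2 ratio of 0.82 (0.42 to 1.22) at 4 h. Homing receptor genes were higher for 12 of 14 at 1 h (median 0.27), with S1pr1 at 0.78 (0.37 to 1.18), and for 5 of 14 at 12 h (-0.08), with Ccr2 at -0.78 (-1.14 to -0.43). Selplg and Itgb7, an adhesion ligand and an integrin chain, were the most counted of that list after Cxcr6, with 1961 and 1327 UMIs.

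Cytokine receptor and JAK-STAT genes were lower at 12 h for 14 of 15, with a median of -0.40. Il7r stood at 384, 501, 336 and 271 CPM in T cells, and within the Ccr7 pool at 897, 735, 696 and 487, lowest at 12 h in both. Cish, a STAT5 feedback inhibitor, had a log2 ratio of -0.71 (-1.29 to -0.12) at 12 h, while Ifngr1 and Jak1 were the most counted members. Tissue-residence and activation genes were higher for 2 of 10 at 1 h (median -0.23), 5 of 11 at 4 h (-0.22) and 1 of 12 at 12 h (-0.54). In the Cxcr6 pool, which was a smaller part of T cells at 1 h, 7 of 10 were higher at 1 h (0.23), 4 of 9 at 4 h (-0.03) and 2 of 10 at 12 h (-0.41). Those Cxcr6 pool counts include Cxcr6, the gene that defines that pool. Rgs1, a regulator of chemokine receptor signalling, stood at 293, 252, 173 and 159 CPM in T cells. Regulatory T cell genes were few: Tnfrsf18 and Ikzf2 were the most counted, Ctla4 had a log2 ratio of -1.15 (-1.99 to -0.34) and Il2ra of -0.84 (-1.66 to -0.02) at 12 h, and for Tnfrsf4 1 cell held 54 of the 69 UMIs at 4 h.

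NFkB response genes were higher for 6 of 15 at 1 h (median -0.06), 5 of 14 at 4 h (-0.11) and 3 of 15 at 12 h (-0.33). In the Cxcr6 pool 8 of 12 were higher at 1 h (0.16), 8 of 14 at 4 h (0.14) and 6 of 14 at 12 h (-0.07). The inhibitors Nfkbiz and Tnfaip3 had log2 ratios of -1.37 (-2.09 to -0.68) and -1.29 (-1.98 to -0.62) at 12 h, and Birc3 had -0.68 (-1.50 to 0.15). Nfkbia, Bcl2a1b and Traf1 were the most counted, with 898, 516 and 473 UMIs. Interferon response genes were even, with 11 of 21, 10 of 22 and 11 of 22 higher at 1, 4 and 12 h. Single members differed in few cells. Isg15, an ubiquitin-like antiviral protein, numbered 33, 32, 22 and 129 UMIs in 19, 18, 18 and 45 T cells (log2 ratio 1.29 at 12 h, 0.73 to 1.89), and Rsad2, the antiviral enzyme viperin, 7, 9, 31 and 65 in 3, 2, 6 and 15 cells. Psmb8, Ifi27l2a and Ly6a were the most counted of the list.

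Heat shock genes were higher for 9 of 11 at 4 h (median 0.32) and for 3 of 12 at 12 h (-0.31). Hspa8, Hsp90ab1 and Hspe1 were the most counted, Hspa1b numbered 9, 12, 19 and 46 UMIs in T cells, and for Hsph1 1 cell held 52 of 76 UMIs at 4 h. Proliferation genes were higher for 6 of 10 at 1 h (median 0.69) and 7 of 10 at 4 h (0.37), on 4.17% to 5.91% of T cells with a Mki67 UMI. At 1 h Ccnb1 went from 10 to 41 UMIs in 8 cells, Ube2c from 49 to 177 in 13, Cenpe from 20 to 61 in 10 and Nusap1 from 21 to 56 in 7. Ccnb2, Cdk1 and Birc5 had log2 ratios of 1.51, 1.33 and 1.02 there, in 8, 10 and 11 cells, and Hmgb2, Stmn1 and Top2a were the most counted. Hist1h2ap, a histone gene of dividing cells, went from 64 to 23 UMIs at 4 h in 6 cells each. These levels rest on a few cycling cells per library.

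Gamma-delta receptor genes were lower at 12 h for 4 of 4 measured. The log2 ratio was -1.21 (-1.80 to -0.62) for Tcrg-C2, -0.71 (-1.39 to -0.04) for Tcrg-C4 and -0.55 (-1.02 to -0.08) for Trdc. Trdc lay in 9 cells at 0 h, with 24 of 76 UMIs in 1 cell, and in 13 cells at 12 h. That is 3.66% and 3.61% of T cells. Tcrg-C2 and Tcrg-C4 were higher in the Cxcr6 than in the Ccr7 pool, by 3.07 and 5.19. The Cxcr6 pool was 51.2% of T cells at 0 h and 42.8% at 12 h, and its part was not tested. Cd8a had a log2 ratio of 0.44 (0.17 to 0.71) at 12 h, Cd8b1 of 0.35 (0.12 to 0.59) at 1 h and Cd4 of -0.13 (-0.77 to 0.49) at 4 h. The clock gene Dbp numbered 37 UMIs at 12 h against 16 at 0 h (0.53, -0.35 to 1.48) and Clock 33 against 31 (-0.59, -1.34 to 0.17), so neither was resolved at this depth. Arntl, Cry1, Tef and Nr1d2, the other clock genes counted most, had 57 to 66 UMIs in all T and NK cells. Of the T cell receptor and signalling genes, 18 of 20 were higher at 1 h (median 0.18). At 4 and at 12 h it was 13 of 20, and no gene of the list was past 2-fold at these times. The 20 include Cd3d, Cd3e, Cd3g and Trbc2, by which the cells were chosen. Trbc2, Cd3g and Cd3d were the most counted.

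Lars2, Hars and Bak1 differed without 1 cell holding most of the UMIs. Lars2, a mitochondrial tRNA synthetase, numbered 15, 26, 39 and 120 UMIs in 15, 20, 37 and 88 T cells, with log2 ratios of 1.10, 1.53 and 2.32. It was also highest at 12 h in proximal tubule barcodes, at 24.1, 26.5, 39.8 and 68.2 CPM. At 4 h Hars, the histidyl-tRNA synthetase, was found in 16 cells against 35 at 0 h (log2 ratio -1.37, -2.29 to -0.52) and Bak1, a pro-apoptotic BCL2 family member, in 13 against 34 (-1.33, -2.32 to -0.41). The Ly49 genes rested on few cells. Klra7 and Klra1 at 1 h went from 9 to 46 and from 12 to 50 UMIs, in 10 and 11 cells, of which 16 and 15 were in 1 cell, and 31 of the 44 Klra9 UMIs at 4 h were in 1 cell.

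Other large differences were those of single or few cells, many of them in genes of other cell types. Lower than at 0 h in T cells at 1 h were the tubule genes S100g (1097 to 23 UMIs, 605 in 1 cell), Klk1 (1004 to 52, 756 in 1 cell), Hsd11b2 (93 to 0, 89 in 1 cell), Defb1 (309 to 37) and Clu (107 to 2). Higher at 4 h were Mgp (79 UMIs in 1 cell), Tm4sf1 and Adgrf5 (54 and 43 UMIs in 5 cells each), Aqp6 and Rhbg (101 and 43 UMIs in 3 and 4 cells) and Fabp4 (42 of 51 in 1 cell). Higher at 12 h were Slc7a12 (71 UMIs in 1 cell), Akr1c18 (61 of 65 in 1 cell), Gng11, Tm4sf1 and Plpp1 (50, 82 and 81 UMIs in 10, 9 and 11 cells) and Nrgn (43 of 49 in 1 cell). Lower at 12 h were the antigen-presentation genes Cd74 (329 to 74, 314 in 1 cell at 0 h) and H2-Eb1 (95 to 30, 92 in 1 cell) and the factor Irf8 (83 to 20). Without the 82 cells that held UMIs of other cells, the direction turned for Tm4sf1 and Adgrf5 at 4 h (-1.35 each) and for Tm4sf1 (-2.27), Akr1c18 (-0.27), H2-Eb1 (0.31) and Klk1 (0.61) at 12 h, and without doublet calls for Gng11 and Plpp1 at 12 h (-0.59 each).

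The marker lists of other cells moved in the same libraries. Summed over the 10 proximal tubule markers, T cells held 3538, 996, 5832 and 4484 CPM. The list was led by Kap and Gpx3, Miox was lower in T cells at 1 h (log2 ratio -2.75), and Pck1 in NK-like cells at 4 h had 40 of 46 UMIs in 1 cell. The 6 distal tubule markers, led by Umod, Slc12a3 and Slc12a1, ran from 574 to 1033 CPM in T cells and from 143 to 2231 in NK-like cells. Aqp2 had 67 UMIs in 1 T cell at 0 h, Umod 233 of 246 in 1 NK-like cell at 4 h and Slc12a3 169 of 170 in 1 NK-like cell at 12 h. The 6 endothelial markers stood at 83.5, 130 and 123 CPM in T cells at 0, 1 and 4 h and were highest at 12 h, where Flt1, Plvap and Emcn had 60, 102 and 88 UMIs in 10, 12 and 11 cells, and Pecam1 led the list.

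Myeloid markers sat in single cells too. The 7 macrophage markers ran from 18.1 to 670 CPM in T cells, almost all of it Lyz2, with 626 UMIs at 0 h and 20 at 12 h, while Cd68 and Csf1r had 28 and 20 UMIs in all T and NK cells. The 6 neutrophil markers ran from 27.5 to 702 CPM in T cells, led by S100a9, S100a8 and Mmp9, with all 57 Retnlg UMIs of the 1 h library in 1 cell. The 6 dendritic markers, led by Cst3, H2-Ab1 and H2-Aa, ran from 238 to 1131 CPM in T cells and reached 3451 in NK-like cells at 4 h, where 1 cell held all 95 H2-Aa UMIs, all 92 of H2-Ab1 and 335 of 371 of Cst3. The 6 B cell markers reached 31.6 CPM in T cells and 12.3 in NK-like cells, with 36 UMIs of Ebf1, 35 of Cd79b and 3 of Ms4a1 in all. Red cell, mast cell and pancreas markers were at most 23.9 CPM, with 22 UMIs of Hbb-bs, 5 of Hba-a1, 4 of Cpa3 and 3 of Ins1. C1qa, Cd79a, Pf4, Ppbp, Mcpt8, Ms4a2 and Ins2 had no UMI in either class, C1qa and Cd79a by the rule. Their part in the gene differences above was not tested beyond leaving out the 82 cells with such UMIs.

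NK-like cells at 1 h had higher immediate-early and granule genes, on 36 cells. All 9 measured immediate-early genes were higher than at 0 h (median log2 ratio 0.66), as were 8 of 10 cytotoxic granule genes (0.55), against 54.2% of all measured genes and a median of 0.04. Past 2-fold higher were 3 and 1 of them, where 5.38% of all genes were. Klf2 stood at 878, 1768, 801 and 860 CPM (1.01, 0.64 to 1.39, at 1 h), highest at 1 h as in all T cells. Gzma stood at 6832, 10902, 8398 and 9185 CPM. Zeb2, a factor of NK maturation, went from 17 to 40 UMIs in 20 cells and Psenen, a gamma-secretase subunit, from 15 to 35 in 20. Klf6 went from 23 to 48, of which 17 in 1 cell, Rgs2 from 14 to 36, of which 24 in 1 cell (-0.02 in place of 1.40 on the log2 scale without the 82 cells), and Hsp90aa1 had a log2 ratio of 1.07 (0.31 to 1.88).

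Cxcr6 in NK-like cells had 40 UMIs in 16 cells, 11 in 4, 38 in 9 and 38 in 10. The 0 h library was the highest, at 382 CPM against 108, 227 and 233, and the log2 ratio at 1 h was -1.82 (-2.93 to -0.83). Cd7, a surface protein of T and NK cells, stood at 782, 334, 311 and 565 CPM in NK-like cells, lower at 1 and 4 h, and at 86.6, 158, 125 and 99.3 in T cells, higher at 1 and 4 h. S100a4, a calcium-binding protein of memory cells, went from 53 UMIs to 20 at 1 h (-1.36, -2.18 to -0.60).

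At 4 and 12 h the NK-like cells were lower for Tsc22d3 and Zfp36l2 and for Satb1, a chromatin organiser of lymphocytes, with log2 ratios for Satb1 of -1.72 (-2.64 to -0.84) and -1.31 (-2.14 to -0.50). At 4 h lower values were also those of Klrc1 (40 to 22 UMIs), Rgs1 (46 to 26), the cytokine receptor genes Il18r1 (-1.36) and Il2rb (-1.20), Ly6c2 (-1.44), Trbc2 (-1.14), Trbc1 (-0.79) and Ptprcap (-0.63). Trbc2 is a gene of the rule, so its level here depends on how the cells were chosen. Of 8 cytokine receptor genes, 0 were higher at 4 h and 1 at 12 h. The median log2 ratio of all genes measured in NK-like cells, with 0.5 added to each count, was -0.07 and -0.03 at these times. Without the cells that held UMIs of other cells, which left 32 NK-like cells at 4 h, these 4 h values moved toward 0. They were then -0.28 (-0.92 to 0.35) for Trbc1 and -0.15 (-0.54 to 0.23) for Ptprcap, whose intervals included 0, and -0.92 for Trbc2, -0.69 for Il2rb, -0.80 for Ly6c2 and -1.13 for Il18r1, whose intervals did not. The median of the T cell receptor list went from -0.63 to -0.06 and that of the cytokine receptor list from -0.48 to -0.12. At 12 h Srsf2 went from 34 to 19 UMIs and Atp2b1 from 37 to 23, and Klri2 from 9 to 42 in 20 cells. The highest ratios of the NK-like class were those of single cells: at 4 h H2-Eb1 (77 UMIs), Cd74 (303), Defb1 (58 of 67) and Ly6a (36 of 43), and at 12 h Lgals3 (44 of 50), Ly6a (64 of 82) and Mt1 (72 of 73). Ly6a was lower in place of higher without the 82 cells, at -1.05 and -2.16 on the log2 scale. The 16.5% of genes past 2-fold in NK-like cells at 4 h thus included 151 of 339 genes with higher CPM in proximal tubule barcodes.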

How the data were processed

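The 4 matrices hold UMI counts per gene and cell barcode from droplet libraries of dissociated kidney, as deposited by the authors. The submitters' processing notes name Cell Ranger 3.1.0, STAR, Seurat and the build mm10, with no role given. The annotation and any filter on barcodes are not given in the sources used here. Of 31053 features, 99.6% matched GENCODE vM21.

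The T and NK cells, the gene lists and the 2 pools were chosen with earlier results of these data known. With 1 library per group, no test across samples was made, and UMIs were added up over the cells of a class in each library. Shares have exact Clopper-Pearson intervals, levels exact Poisson intervals and log2 ratios exact conditional binomial intervals, all at 95%. A class with 0 UMIs was set at 3 UMIs for a bound. Cells were thinned to 1000 UMIs to compare shares at equal depth. Doublets were called from simulated doublets with 30 neighbours, which marked 7.59% to 8.89% of kept barcodes per library and 9, 5, 8 and 21 of the T and NK cells. These were kept, and leaving them out is one of the alternatives.

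At each time the text names up to 8 genes each way in T cells and 5 in NK-like cells with the largest ratio to 0 h among genes with 50 or more UMIs and a 2-fold difference. This rule skipped immunoglobulin, haemoglobin, ribosomal and mitochondrial genes, genes of the sex chromosomes that mark sex, predicted genes without a name, the other-cell lists, and genes with higher CPM in proximal tubule barcodes. It also names up to 3 genes of each list with the most UMIs and 3 with the largest ratio, and the 10 largest each way between classes. A few genes that the rule names are not reported here. Alternatives were a mitochondrial limit of 25%, 3 marker genes, 500 genes, no Slc34a1 UMI, doublet calls left out, other UMI minimums, equal weight per cell, another total, and cells with UMIs of other cell types left out, the last added after seeing the data. The scripts were tested on simulated data. Python 3.11.15 was used with numpy 2.4.6, scipy 1.17.1, pandas 2.3.3, scikit-learn 1.9.0 and matplotlib 3.10.9.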

Additional observations from a re-analysis of the deposited data

Results flagged for a closer look

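For some genes T cells and NK-like cells differed from 0 h in opposite directions, with both counting intervals excluding 0 and 50 or more UMIs in each class. With 1 library per group the difference between the classes was not tested, and the values below are T minus NK-like on the log2 scale. At 1 h it was 2.09 for Cd7 (0.86 in T cells and -1.23 in NK-like cells) and 1.02 for Trbc2 (0.25 and -0.77). Trbc2 is a gene of the rule, so its level in each class depends on how the cells were chosen. At 4 h it was 1.86 for Cd7 (0.53 and -1.33), 1.998 for the IL-18 receptor gene Il18r1 (0.64 and -1.36), 1.11 for Cxcr6 (0.37 and -0.75) and 1.03 for S100a4 (0.38 and -0.65).

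Among abundant lymphocyte genes at 4 h, it was 1.04 for Ltb, 0.93 for Trbc1, 0.91 for Ptprcap, 0.90 for Ccl5, 0.84 for the protease gene Ctsw and 0.50 for Nkg7. Nkg7 is likewise a gene of the rule, and its level depends on how the cells were chosen. Ccl5 in NK-like cells turned to the T cell direction under 3 alternatives. Without the cells that held UMIs of other cells, Ccl5 (0.51), Nkg7 (0.27) and Ctsw (0.03) in NK-like cells at 4 h had the direction of T cells, and the NK-like intervals of Ltb (-1.01 to 0.31), Trbc1 (-0.92 to 0.35), Ptprcap (-0.54 to 0.23), Cxcr6 (-0.98 to 0.47) and S100a4 (-0.78 to 0.45) included 0. Those of Cd7 (-1.62 to -0.44) and Il18r1 (-2.10 to -0.23) did not. Irf8 differed by -1.23 (-0.67 and 0.56) and Defb1 by -6.23 (-0.83 and 5.39), where 58 of the 67 Defb1 UMIs in NK-like cells lay in 1 cell. Without the cells that held UMIs of other cells, Irf8 was -0.10 (-0.83 to 0.62) in T cells and 0.55 (-0.02 to 1.14) in NK-like cells. Both intervals then included 0. Defb1 in NK-like cells then had 1 UMI at 0 h and 1 at 4 h. At 12 h Tyrobp differed by -1.24 (lower in T cells and 0.24 in NK-like cells).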

How the results depend on the processing

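No paired analysis was possible because each group has 1 library and all replicate numbers are 1. The share of T and NK cells was 4.31%, 4.01%, 2.87% and 5.85% at 0, 1, 4 and 12 h with a 25% mitochondrial limit, and 1.92%, 1.83%, 1.65% and 3.19% with no Slc34a1 UMI allowed. At equal depth, T cells were 78.2%, 77.0% and 80.0% of the cells at 0, 4 and 12 h. T cell genes past 2-fold at 1, 4 and 12 h numbered 143, 90 and 118 with a minimum of 50 UMIs and 4132, 3834 and 2942 with none, and 264 at 1 h without cells that held UMIs of other cells. In NK-like cells they numbered 17, 90 and 28 with the minimum of 50 and 4371, 4028 and 3442 with none, and at 4 h 199 with 3 marker genes and 116 without cells that held UMIs of other cells.

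Directions turned for 2 list values and 21 values of named genes, and the cause was not tested. With 3 marker genes, NK-like values at 1 h were -0.067 for the heat shock list, -0.76 for Rgs2 and -0.86 for Egr1, and Ccl5 at 4 h was 0.083. Without cells that held UMIs of other cells, NK-like values were 0.10 for the NK receptor list at 4 h, -0.017 for Rgs2 at 1 h, 0.51 for Ccl5 and -1.05 for Ly6a at 4 h, and -2.16 for Ly6a at 12 h. T cell values in that setting were -1.35 for Tm4sf1 and Adgrf5 at 4 h, and -2.27 for Tm4sf1, 0.61 for Klk1, -0.27 for Akr1c18 and 0.31 for H2-Eb1 at 12 h. Without doublet calls, T cell values at 12 h were -2.18 for Tm4sf1 and -0.59 for Gng11 and Plpp1. With a 25% mitochondrial limit they were 0.88 for Klk1 and 0.32 for Egr1. With cells weighted equally, Egr1 was 0.34 at 12 h and Xcl1 0.47 at 4 h in T cells, and Ccl5 0.18 at 4 h in NK-like cells. Of the values that kept their direction, 331 list values and 723 values of named genes stayed within the counting interval or the limit set for lists, and 115 and 96 moved further. Tsc22d3 in T cells ranged from -1.06 to -0.95 at 4 h and from -1.06 to -0.98 at 12 h over 6 alternatives. The 36 to 51 NK-like cells per library limit every value of that class.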

Other observations

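The immunoglobulin heavy chain gene Ighm, a B cell gene that the rule did not use, had a UMI in 41.9%, 46.3%, 47.1% and 50.8% of T cells at 0, 1, 4 and 12 h and in 21.4%, 22.2%, 20.5% and 33.3% of NK-like cells. After thinning to 1000 UMIs the shares in T cells were 21.4%, 18.4%, 21.1% and 19.3%. Proximal tubule barcodes, which are deeper, had it in 0.503% to 1.56%, and B barcodes in 97.8% to 99.3%. The other B cell markers stayed near 0 in T cells, with 36 UMIs of Ebf1, 35 of Cd79b and 3 of Ms4a1 in all T and NK cells, and Cd79a at 0 by the rule. The source of the Ighm UMIs was not tested.

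Gm42418, an unnamed gene left out of the named genes, stood at 439, 540, 1547 and 2673 CPM in T cells and at 395, 485, 910 and 1983 in proximal tubule barcodes, highest at 12 h in both. Lars2 had the same order of libraries in both populations.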
